A study of Arabidopsis thaliana with 6 samples.

Results

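The 26S proteasome genes of Arabidopsis thaliana and 2 transcription factors that control them were followed through a melatonin treatment. The members were taken by gene identifier from a fixed list of 45: 12 genes of the alpha subunits and 11 of the beta subunits of the 20S core, 10 of the RPT subunits and 10 of the RPN subunits of the 19S cap, and the regulators NAC53 (AT3G10500) and NAC78 (AT5G04410). All 45 were among the 32678 genes of the count table, and all 45 passed the filter on low counts that left 18380 genes to test. Wild-type (WT) plants were 7 days old, grown on plates of MS (a defined salt medium), when they received 12 h of treatment with 0, 100 or 1000 µM melatonin, an indole made from tryptophan. RNA labelled as leaf was sequenced in 2 libraries per dose, and the 0 µM group, called the control here, differs from the others by its labels in the melatonin alone. No labels say whether the libraries of a dose came from separate plants, so a p-value rests on differences between libraries of the same dose, pooled over the doses, which could be technical alone.

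The 26S proteasome degrades proteins that carry ubiquitin chains. Its 20S core is a barrel of outer alpha rings, which gate the entrance, and inner beta rings, which hold the proteolytic sites, and the 19S cap binds the ubiquitylated protein, removes the ubiquitin and unfolds the chain with a ring of RPT ATPases. Plants raise the subunit genes together when proteasome capacity falls short, through NAC53 and NAC78, NAC-family factors held at membranes until they are released to the nucleus, which bind a short promoter motif shared by many proteasome genes.

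Library totals ran from 6410046 to 7723602 counts, and TMM scaling factors from 0.945 to 1.026. Values below are CPM, with library sizes multiplied by these factors. The 2 libraries at 1000 µM stood further apart than the others: over all genes, their counts differed by a chi-square per degree of freedom of 5.43, compared with 1.92 between the controls and 1.81 between the 100 µM libraries. Of the 43 subunit genes, 34 were higher in replicate 1 than in replicate 2 at 1000 µM. The median difference over the 43 was 0.146 (log2). The count was 20 between the controls and 18 between the 100 µM libraries. Such counts were not made over all tested genes. All 7 leaf markers had more than 3 counts in every library, and so had all 7 root markers, which goes against a label of leaf alone. The highest of these, PYK10, read 3177 and 3315 CPM in the controls. Summed leaf marker CPM was 24770 and 26660 in the controls, 24020 and 23630 with 100 µM melatonin, and 16910 and 16010 with 1000 µM. Summed root marker CPM was 3383 and 3530 in the controls, most of it from PYK10 alone. It was 3251 and 3298 with 100 µM melatonin, and 2212 and 2209 with 1000 µM. No leaf or root marker was at 0. Both sums were lower at 1000 µM. In edgeR's quasi-likelihood test against the control, 5 of 7 leaf markers fell, and 4 of 7 root markers fell and 1 rose. Of all tested genes, 14.5% fell and 15.2% rose at an adjusted p under 0.05. The markers' part in the results below was not tested. In a bulk sample, fewer cells of a type and less RNA per cell cannot be told apart.

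At 1000 µM, transcripts of every layer of the proteasome were higher than in the controls. Of the 43 subunit genes, 36 rose and 0 fell at an adjusted p under 0.05 (edgeR's quasi-likelihood test, Benjamini-Hochberg adjustment over all 18380 genes), while 15.2% of all tested genes rose and 14.5% fell. The rises covered 9 of 12 alpha, 9 of 11 beta, 8 of 10 RPT and 10 of 10 RPN genes. Both 1000 µM libraries were above both controls for 43 of 43 subunit genes, an order that 31.5% of all tested genes showed. The median log2 change over the 43 genes was 0.50, with a range from 0.16 to 1.27, beside a median of -0.01 over all tested genes, and 12 of the 36 rose by 1.5-fold or more.

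Summed over the 43 genes, the level was 2651 and 2707 CPM in the controls, 2993 and 3041 CPM at 100 µM, and 4058 and 3618 CPM at 1000 µM. The groups did not overlap and followed the order of the doses, and the 1000 µM libraries were also the pair furthest apart. As a share of all counts, these genes took 0.2685% and 0.2701% in the controls, 0.3022% and 0.3053% with 100 µM melatonin, and 0.383% and 0.3705% with 1000 µM. The mean sum was 2679 ± 39.7 CPM (SD, n = 2) in the controls, 3017 ± 33.4 CPM with 100 µM melatonin and 3838 ± 311 CPM with 1000 µM, a ratio to the control of 1.13 and then 1.43. The ratio at 1000 µM lay between 1.35 and 1.52 when any 1 library was left out. With 2 libraries against 2, an exact permutation test cannot give a two-sided p below 0.333, and no other test of the sums was made.

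**Figure D1:**
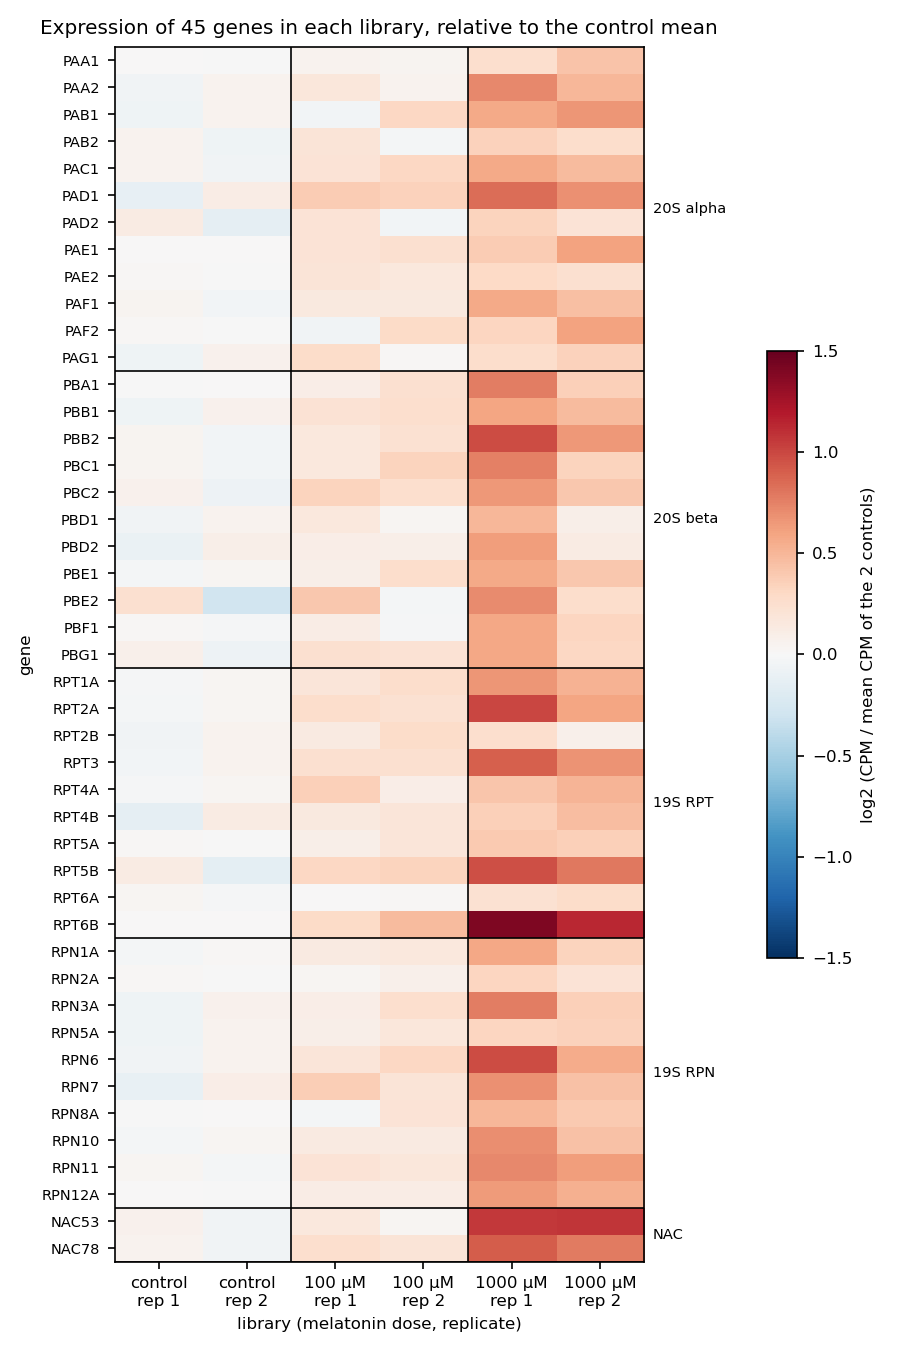
Level of each of the 45 genes (vertical axis, by class) in each of the 6 libraries (horizontal axis), as log2 of the CPM over the mean of the 2 controls (colour). Both 1000 µM columns are above the control mean for all 43 subunit genes and both NAC genes, for some only slightly. The 100 µM columns are paler for most genes, and some of their cells lie below the control mean. At 1000 µM, 34 of the 43 subunit genes are higher in replicate 1 than in replicate 2, a count not made over all tested genes.

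The alpha subunits form the outer rings of the core and close its entrance to folded proteins. Of the 12 genes, 9 rose at 1000 µM, and 3 (PAB2, PAD2 and PAE2) did not pass the test. The summed level of the class was 521.8 ± 1.61 CPM (SD, n = 2) in the controls, 589.4 ± 6.35 CPM with 100 µM melatonin and 728.4 ± 10.6 CPM with 1000 µM. PAD1 had the largest log2 change of the class and PAE2 the smallest. PAD1 (AT3G51260) read 49.6 and 58.2 CPM in the controls, 70.4 and 68.5 CPM at 100 µM, and 96.0 and 86.7 CPM at 1000 µM. Its 3 groups did not overlap. It rose at 1000 µM with a log2 change of 0.76 ± 0.11 (SE), adjusted p = 3.97e-05. PAE2 (AT3G14290) read 28.1 and 27.6 CPM in the controls, 31.9 and 30.9 CPM at 100 µM, and 34.1 and 32.9 CPM at 1000 µM. Its order was the same over a narrower range, and its log2 change of 0.27 ± 0.12 did not pass, adjusted p = 0.102. Next to PAD1 came PAA2 and PAB1. PAA2 (AT2G05840) went from 46.0 and 49.3 CPM in the controls to 53.5 and 49.4 CPM at 100 µM and 78.9 and 67.4 CPM at 1000 µM, a log2 change of 0.62 ± 0.11 at 1000 µM, adjusted p = 0.000417. PAB1 (AT1G16470) read 35.1 and 38.1 CPM in the controls, 35.5 and 45.4 CPM at 100 µM, and 54.4 and 58.0 CPM at 1000 µM, with the same log2 change of 0.62 ± 0.12, adjusted p = 0.000996. In both genes the 100 µM libraries ran close to or into the controls and the 1000 µM libraries stood clear of all others. PAC1 (0.52), PAF1 (0.51) and PAE1 (0.50) also rose, by log2 change at 1000 µM against the control. The calls of the weakest rises did not hold when some single libraries were left out, or under some other settings. PAA1, with a log2 change of 0.34, lost its call without control replicate 1, control replicate 2 or 1000 µM replicate 2, at an adjusted p between 0.0604 and 0.126, and with library totals and in DESeq2 (0.0504 and 0.0877). PAF2, the member with the lowest level per kilobase of the class, and PAG1 rose with adjusted p of 0.0427 and 0.0499. PAF2 lost its call without either control, 100 µM replicate 2 or 1000 µM replicate 2 (adjusted p 0.0515 to 0.172), and PAG1 when any 1 library but 1000 µM replicate 1 was left out (0.06 to 0.311). Upper-quartile scaling, library totals and DESeq2 ended the calls of PAF2 (0.0652 to 0.191) and PAG1 as well, and for PAG1 so did a fit of the 2 groups alone (0.0583 to 0.154 over these settings). PAB2 passed only without 1000 µM replicate 2, at an adjusted p of 0.0453.

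The beta subunits carry the catalytic sites: PBA1 the caspase-like, PBB1 and PBB2 the trypsin-like, and PBE1 and PBE2 the chymotrypsin-like activity. Of the 11 genes, 9 rose at 1000 µM, and PBD1 and PBE2 did not pass the test. Summed CPM of the beta genes was 508.1 ± 2.17 (SD, n = 2) in the controls, 574.2 ± 6.45 with 100 µM melatonin and 724.2 ± 103 with 1000 µM, so that the 1000 µM libraries differed far more than in the alpha class. PBB2 had the largest log2 change of the class and PBD1 the smallest. PBB2 (AT5G40580) read 26.8 and 25.3 CPM in the controls, 28.9 and 30.4 CPM at 100 µM, and 51.1 and 40.8 CPM at 1000 µM. Its doses were fully separated, and it rose with a log2 change of 0.82 ± 0.13, adjusted p = 0.000117. PBB1 (AT3G27430), the other gene of that site, read 72.0 and 78.4 CPM in the controls, 87.1 and 89.3 CPM at 100 µM, and 113.7 and 104.7 CPM at 1000 µM, a log2 change of 0.54 ± 0.10, adjusted p = 0.000454. PBA1 (AT4G31300) read 70.6 and 71.5 CPM in the controls, 76.1 and 83.9 CPM at 100 µM, and 120.7 and 91.0 CPM at 1000 µM. Its 1000 µM libraries differed widely from each other, yet both exceeded the rest, and it rose with a log2 change of 0.57 ± 0.12, adjusted p = 0.00152. PBE1 (AT1G13060) read 66.1 and 69.0 CPM in the controls, 71.7 and 80.8 CPM at 100 µM, and 100.0 and 89.2 CPM at 1000 µM. It too was ordered by dose, with a log2 change of 0.48 ± 0.10 at 1000 µM, adjusted p = 0.00179. At least 1 gene of each catalytic site therefore passed the test. PBD1 (AT3G22630), a subunit with no catalytic site, read 29.1 and 31.3 CPM in the controls, 33.7 and 30.8 CPM at 100 µM, and 42.8 and 32.2 CPM at 1000 µM, and its log2 change of 0.31 ± 0.14 did not pass, adjusted p = 0.102. Its second 1000 µM library lay just above the higher control. Without 1000 µM replicate 2 the change of PBD1 passed at 0.51, adjusted p = 0.00269.

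The remaining beta genes that rose, all of subunits without a catalytic site, were PBC1, PBC2, PBF1, PBG1 and PBD2, with log2 changes at 1000 µM from 0.39 (PBD2) to 0.56 (PBC1). Without control replicate 2, the calls were lost for PBC1 (adjusted p = 0.0525), PBC2 (0.0617), PBF1 (0.0513) and PBG1 (0.0935), and PBD2 was lost when any 1 library but 1000 µM replicate 2 was left out (0.0764 to 0.521), and with upper-quartile scaling, library totals, DESeq2 or the 2 groups fitted alone (0.0616 to 0.147). PBE2 (AT3G26340) had the lowest level per kilobase of the class and read 14.4 and 9.98 CPM in the controls, 16.1 and 12.0 CPM at 100 µM, and 19.9 and 14.7 CPM at 1000 µM. Its 100 µM libraries overlapped both other groups, and its log2 change of 0.50 ± 0.21 did not pass, adjusted p = 0.0781. It passed without control replicate 1 (0.0373), without 1000 µM replicate 2 (0.00634) and without a filter on low counts (0.0208).

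The RPT subunits are the ATPases of the cap, whose ring docks on the core and threads the unfolded substrate into it. Of the 10 genes, 8 rose at 1000 µM, and RPT2B and RPT6A did not pass the test. The RPT genes summed to 715.6 ± 17.9 CPM (SD, n = 2) in the controls, 817.5 ± 15.3 CPM with 100 µM melatonin and 1061 ± 68.1 CPM with 1000 µM. This class held both the largest and the smallest log2 change of all 43 subunit genes. RPT6B (AT5G20000) read 22.4 and 22.4 CPM in the controls, 27.3 and 31.2 CPM at 100 µM, and 59.3 and 49.0 CPM at 1000 µM. Its 3 groups did not overlap, and only the 1000 µM libraries were far above the rest. It rose with a log2 change of 1.27 ± 0.13, adjusted p = 8.7e-07. RPT2B (AT2G20140), a gene of the subunit that helps to open the core's gate, read 44.2 and 47.8 CPM in the controls, 50.7 and 55.5 CPM at 100 µM, and 54.6 and 48.5 CPM at 1000 µM. Its treated groups overlapped each other, and its log2 change at 1000 µM of 0.16 ± 0.11 did not pass, adjusted p = 0.299. RPT5B (AT1G09100) read 15.7 and 13.0 CPM in the controls, 17.8 and 18.2 CPM at 100 µM, and 28.2 and 24.9 CPM at 1000 µM, and rose with a log2 change of 0.89 ± 0.15, adjusted p = 0.000227. RPT2A (AT4G29040), known from mutants with a shortened root meristem and enlarged leaves, read 79.3 and 82.8 CPM in the controls, 97.1 and 95.1 CPM at 100 µM, and 161.9 and 122.5 CPM at 1000 µM. Its first 1000 µM library was well above the second, and both were above all others. RPT2A rose with a log2 change of 0.81 ± 0.12, adjusted p = 4.54e-05. RPT3 (AT5G58290), the only gene of its subunit in the list, read 104.9 and 112.1 CPM in the controls, 127.1 and 127.5 CPM at 100 µM, and 200.5 and 172.6 CPM at 1000 µM. The 100 µM pair was nearly identical and lay between the other groups, and RPT3 rose at 1000 µM with a log2 change of 0.78 ± 0.10, adjusted p = 1.09e-05.

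RPT1A (AT1G53750) read 131.4 and 135.3 CPM in the controls, 150.8 and 159.8 CPM with 100 µM melatonin, and 210.2 and 191.4 CPM with 1000 µM, and rose with a log2 change of 0.59 ± 0.09, adjusted p = 0.000111. RPT4A, RPT4B and RPT5A rose less, with log2 changes of 0.46, 0.41 and 0.37. These calls did not all hold in fits without 1 control, which leave 1 library in that group. Without control replicate 1, RPT4A (log2 change 0.44) and RPT4B (0.29) were lost. RPT5A was lost without either control, at a log2 change of 0.36 to 0.39. RPT6A (AT5G19990) read 70.2 and 67.9 CPM in the controls, 69.3 and 69.8 CPM at 100 µM, and 81.0 and 83.2 CPM at 1000 µM. It was level between the controls and 100 µM and higher at 1000 µM, with a log2 change of 0.25 ± 0.10 that did not pass, adjusted p = 0.0588. Without 1000 µM replicate 1 it passed, at 0.0347.

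The RPN subunits are the cap's scaffold, ubiquitin receptors and deubiquitylase. All 10 in the list rose at 1000 µM. Further RPN genes outside the list, not all of which rose, are given below. Summed CPM of the 10 listed RPN genes was 933.5 ± 22.4 (SD, n = 2) in the controls, 1036 ± 18 with 100 µM melatonin and 1324 ± 130 with 1000 µM. Among these 10, RPN6 had the largest log2 change and RPN2A the smallest. RPN6 (AT1G29150), a lid subunit that braces the cap against the core, read 83.0 and 89.2 CPM in the controls, 97.8 and 106.9 CPM at 100 µM, and 169.1 and 126.4 CPM at 1000 µM. The doses did not overlap, and the first 1000 µM library was well above the second. RPN6 rose with a log2 change of 0.78 ± 0.12, adjusted p = 9.68e-05. RPN11 (AT5G23540), the deubiquitylase that cuts ubiquitin from the substrate, read 75.7 and 72.2 CPM in the controls, 85.3 and 83.4 CPM at 100 µM, and 121.4 and 114.4 CPM at 1000 µM. The replicates were close in all groups, and the log2 change of RPN11 was 0.67 ± 0.10, adjusted p = 3.62e-05. RPN12A (AT1G64520), whose mutants have an altered response to cytokinin, read 68.1 and 67.1 CPM in the controls, 72.8 and 73.2 CPM at 100 µM, and 105.2 and 97.8 CPM at 1000 µM. Most of its difference lay between 100 and 1000 µM, and its log2 change at 1000 µM against the control was 0.59 ± 0.10, adjusted p = 0.000169. RPN10 (AT4G38630), a ubiquitin receptor, read 90.2 and 93.5 CPM in the controls, 100.4 and 100.8 CPM at 100 µM, and 148.3 and 124.4 CPM at 1000 µM. It followed the same order, with a log2 change of 0.57 ± 0.10, adjusted p = 0.000369. RPN2A (AT2G32730), part of the large scaffold at the base of the cap, read 184.7 and 181.8 CPM in the controls, 186.9 and 193.2 CPM with 100 µM melatonin, and 229.3 and 210.7 CPM with 1000 µM. Its 1000 µM libraries were above the rest by a small margin. Its log2 change of 0.26 ± 0.09 was the smallest that passed, adjusted p = 0.0354, and it was lost without either control or either 100 µM library (0.0751 to 0.217), and with upper-quartile scaling, DESeq2 or the 2 groups fitted alone (0.073 to 0.0752).

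Of the other RPN genes, RPN3A (0.57), RPN7 (0.56), RPN1A (0.47), RPN8A (0.45) and RPN5A (0.34) rose by these log2 changes at 1000 µM. RPN1A encodes the other large scaffold, where ubiquitin shuttles dock, and RPN8A the partner of RPN11. The call of RPN5A was lost without either control, at an adjusted p of 0.0508 and 0.17. The strand setting of the authors' counting is not given in the sources used here, and 17 of the 45 genes overlap another annotated gene, so that their values are less certain: PAB2, PAD2, PAF2, PBB1, PBB2, PBD1, PBD2, PBF1, PBG1, RPT1A, RPT3, RPT5B, RPN5A, RPN7, RPN11, RPN12A and NAC78.

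**Figure D2:**
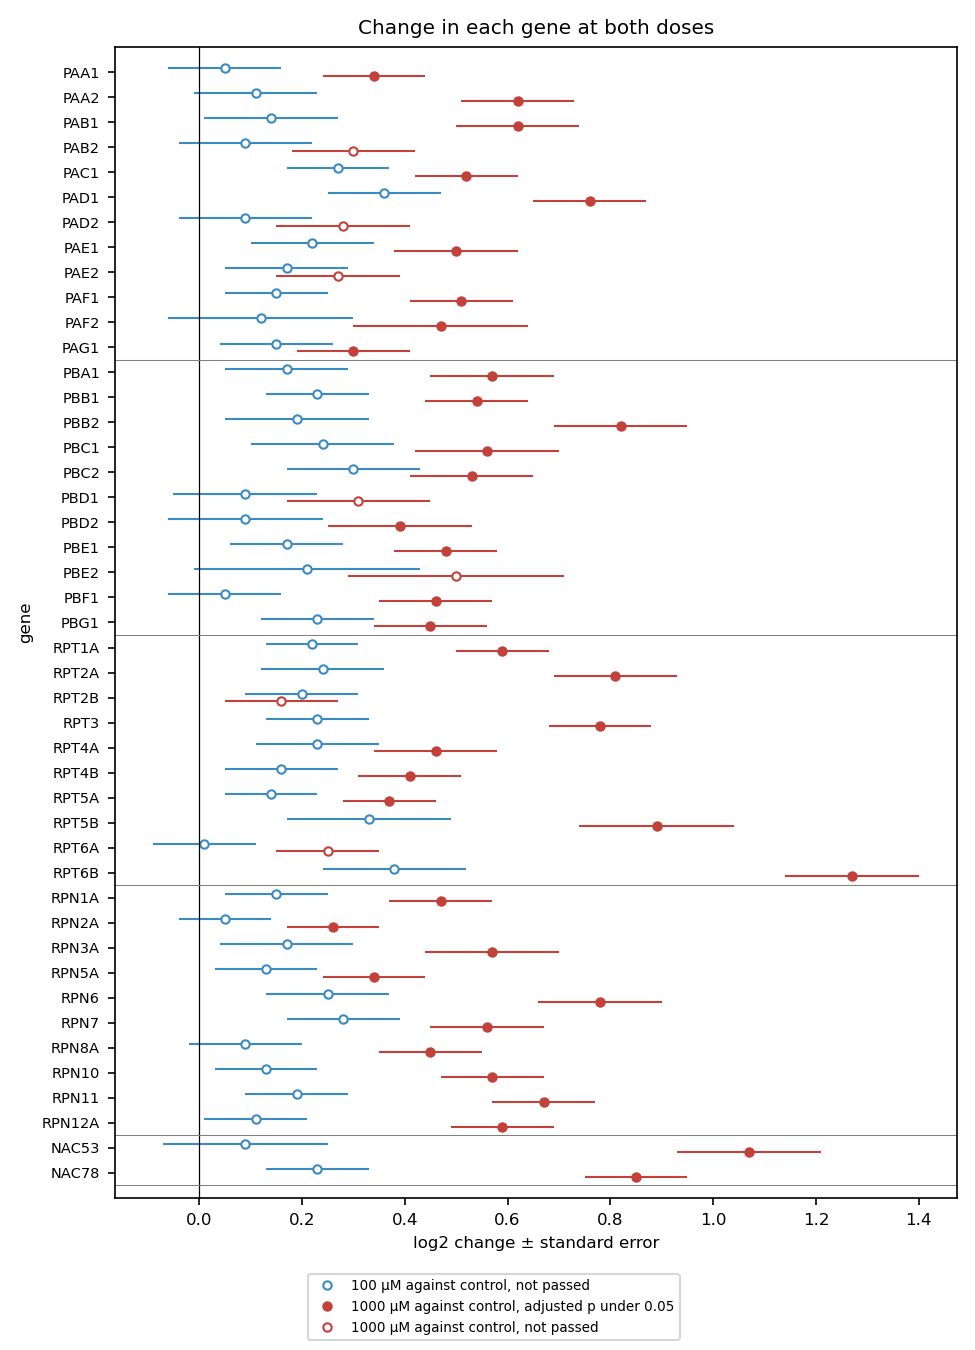
Log2 change ± standard error (horizontal axis) of each gene (vertical axis, by class) at 100 µM (blue) and 1000 µM (red) against the control, from 2 libraries a group. Filled points passed an adjusted p of 0.05. All 43 subunit genes lie to the right of 0 at both doses, 36 of them filled at 1000 µM and 0 at 100 µM.

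Both regulators rose at 1000 µM. NAC53 read 14.4 and 13.3 CPM in the controls, 15.4 and 14.1 CPM at 100 µM, and 28.9 and 29.1 CPM at 1000 µM. Its control and 100 µM libraries overlapped, and both 1000 µM libraries were near each other and far above. Its log2 change was 1.07 ± 0.14 at 1000 µM against the control, adjusted p = 1.96e-05, and 0.97 ± 0.14 against 100 µM, adjusted p = 0.000115. NAC78 read 81.8 and 76.1 CPM in the controls, 94.0 and 90.6 CPM at 100 µM, and 148.4 and 136.0 CPM at 1000 µM. Here the 3 groups did not overlap. The log2 change of NAC78 was 0.85 ± 0.10 at 1000 µM against the control, adjusted p = 3.2e-06, and 0.62 ± 0.10 against 100 µM, adjusted p = 0.000186. Of the 43 subunit genes, RPT6B and RPT5B had a log2 change above that of NAC78, and RPT6B above that of NAC53; these differences were not tested. At 100 µM against the control neither passed: the log2 change was 0.09 ± 0.16 for NAC53 (adjusted p = 0.841) and 0.23 ± 0.10 for NAC78 (0.281). Per kilobase of exon, NAC78 stood at 34.8 CPM in the controls and NAC53 at 5.49, and at 1000 µM they stood at 62.7 and 11.5. The 2 regulators' calls at 1000 µM against the control held under all 13 alternatives tried.

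**Figure D3:**
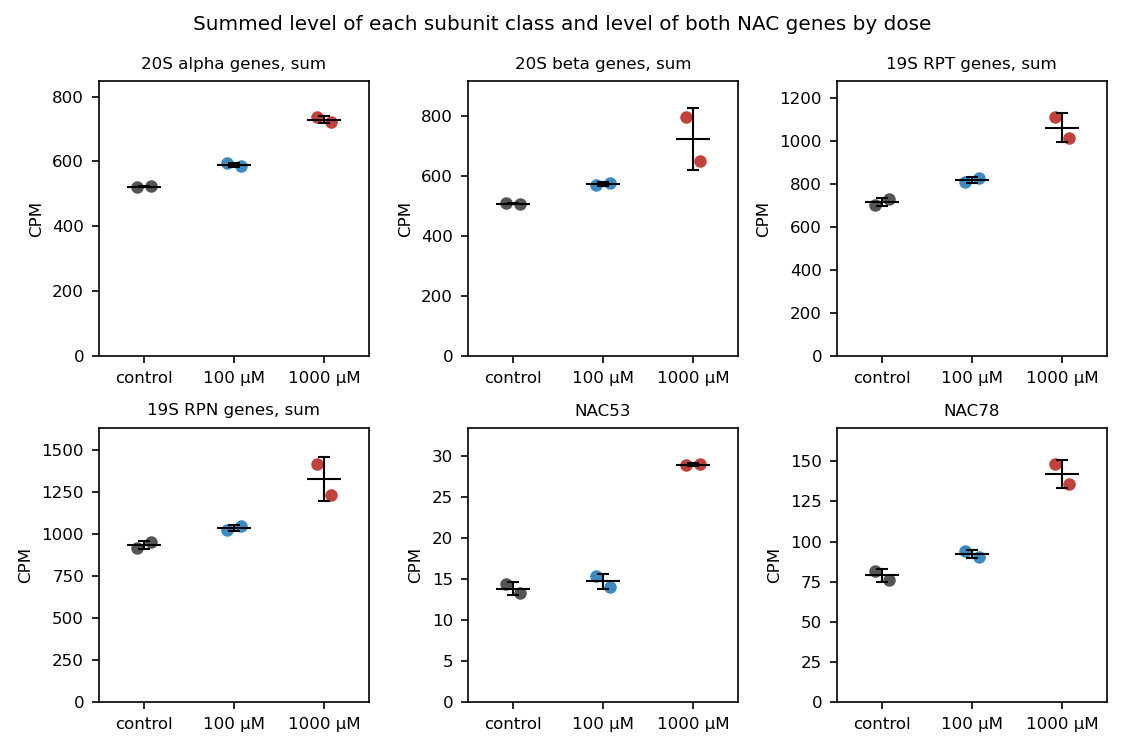
Summed CPM of each subunit class and CPM of NAC53 and NAC78 (vertical axes, from 0) by melatonin dose (horizontal axis); points are the 2 libraries, and the black mark and bar are the mean ± SD. Every class sum is ordered control, 100 µM, 1000 µM with no overlap, whereas the control and 100 µM libraries of NAC53 overlap, at 13.3 to 15.4 CPM.

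At 100 µM, no subunit gene passed the test, and all 43 had a log2 change above 0. In edgeR's quasi-likelihood test 0 of 43 passed, where 1.79% of all tested genes rose and 1.53% fell; DESeq2 also called 0. An unadjusted p under 0.05 was reached by 8 of the 43, beside 15.3% of all tested genes. Of all 18380 tested genes, 9013 had a log2 change above 0. The median over the subunit genes was 0.17, with a range from 0.01 to 0.38, and both 100 µM libraries exceeded both controls for 32 of 43, an order shown by 25.4% of all tested genes. PAD1 had the smallest adjusted p of the 43 genes, 0.0888, with a log2 change of 0.36 ± 0.11 and the values given above. Within the beta class this was PBC2 (AT1G77440), with 29.8 and 26.9 CPM in the controls, 35.8 and 33.9 CPM at 100 µM, and 44.6 and 37.5 CPM at 1000 µM. Its 3 groups did not overlap, and its log2 change at 100 µM was 0.30 ± 0.13, adjusted p = 0.274. RPT6B had a log2 change at 100 µM of 0.38 ± 0.14, adjusted p = 0.169, the largest of the 43. RPN7 (AT4G24820), a lid subunit, read 88.2 and 101.8 CPM in the controls, 122.3 and 108.9 CPM at 100 µM, and 152.2 and 129.3 CPM at 1000 µM, with a log2 change at 100 µM of 0.28 ± 0.11, adjusted p = 0.215. It was ordered by dose without overlap, but its replicates were wide apart in every group. The count of 0 changed with the libraries in the fit: without 1000 µM replicate 1, or without replicate 2, 8 subunit genes passed at 100 µM, namely PAC1, PAD1, RPT1A, RPT2A, RPT3, RPT6B, RPN6 and RPN7. In these fits the calls over all tested genes, in either direction, also went from 3.32% to 9.33% and 9.39%. With the control and 100 µM groups fitted alone, 7 passed, with RPT6B no longer among them and 9.42% of all genes called, and without a filter on low counts PAD1 alone passed, adjusted p = 0.0433.

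Between the doses, 21 of the 43 subunit genes rose from 100 to 1000 µM and 0 fell, where 8.65% of all tested genes rose and 7.3% fell. These were 4 alpha, 5 beta, 5 RPT and 7 RPN genes. The log2 change was above 0 for 42 of the 43, with a median of 0.31, and both 1000 µM libraries exceeded both 100 µM libraries for 38, an order shown by 27.5% of all tested genes. The exception was RPT2B, at -0.04 ± 0.11, adjusted p = 0.845. RPT6B had the largest change, 0.89 ± 0.13, adjusted p = 8.43e-05. RPT3 (0.55, adjusted p = 0.000782), RPN11 (0.48, 0.00175) and RPN12A (0.48, 0.00228) were, with RPT6B, the 4 genes whose call held under all 13 alternatives. In DESeq2 the count was 10, and the calls over all tested genes, in either direction, went from 2932 to 1625. The count also moved with the library left out, and so did the calls over all tested genes. The median log2 change of the 43 then ran from 0.26 (without 1000 µM replicate 1) to 0.42 (without 1000 µM replicate 2). This comparison shares its 1000 µM libraries with the comparison against the control.

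Levels differed widely between subunits of what is assembled as one complex. Per kilobase of exon in the controls, the 43 genes ran from 9.42 CPM in RPT5B to 76.9 in RPT5A, with a median of 39.8. Many subunits have 2 genes, however, and 33 subunit positions result when the genes of one position, those outside the list included, are added. On that scale, positions in the controls ran from 14.3 CPM per kilobase in RPN13, a ubiquitin receptor outside the list, to 86.4 in RPT5. The alpha positions lay between 43.6 (PAG) and 75.0 (PAA), the beta positions between 43.4 (PBG) and 72.2 (PBB), and the RPT positions between 40.9 (RPT6) and 86.4 (RPT5). Of the 33 positions, 33 had both 1000 µM libraries above both controls, with ratios of the group means from 1.2 (RPN13) to 1.72 (RPT3 and RPN6) and a median of 1.42. At 100 µM, 26 had both libraries above both controls, with ratios from 0.93 (RPN13) to 1.22 (RPN7). Of all tested genes, 31.5% showed this order at 1000 µM and 25.4% at 100 µM. Those shares count single genes, whereas many positions are sums over 2 genes, so the comparison is not like for like.

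For 13 subunits both genes of a pair were in the list, and their coding sequences are alike, with an identity from 80.7% (RPT5A and RPT5B) to 94.4% (RPT6A and RPT6B). The change at 1000 µM against the control differed within a pair by more than 2 standard errors of the difference in 4 of the 13 pairs, and the median size of the difference was 0.28 (log2). That standard error is the root of the summed squares of the 2 genes' standard errors. It treats the genes as independent, although both were read in the same libraries, and no adjustment was made for the 13 pairs. RPT6 showed the widest gap: the log2 change of RPT6A was lower than that of RPT6B by 1.02 ± 0.16, so that RPT6A's share of the pair's counts, 75.8% and 75.2% in the controls, was 71.8% and 69.1% with 100 µM melatonin and 57.7% and 62.9% with 1000 µM. The share was lower at each higher dose, without overlap. In the RPT2 pair the log2 change of RPT2A was higher by 0.65 ± 0.16, and its share was 64.2% and 63.4% in the controls, 65.7% and 63.2% with 100 µM melatonin, and 74.8% and 71.6% with 1000 µM. Here the shares overlapped between the control and 100 µM, and the shift was seen at 1000 µM. RPT5A changed less than RPT5B by 0.52 ± 0.17, and PAD1 more than PAD2 by 0.48 ± 0.17. PBE1 and PBE2 differed least, by 0.02 ± 0.23. The gene with the lower control level per kilobase had the larger log2 change in 7 of 13 pairs. RPT6A and RPT6B share an exact run of 104 bases, the longest of the 13 pairs, and how the authors' counting treated reads that match both is not given in the sources used here, so the split between them is less certain than their sum. That sum was 92.6 and 90.3 CPM in the controls, 96.6 and 101.0 CPM at 100 µM, and 140.3 and 132.2 CPM at 1000 µM.

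**Figure D4:**
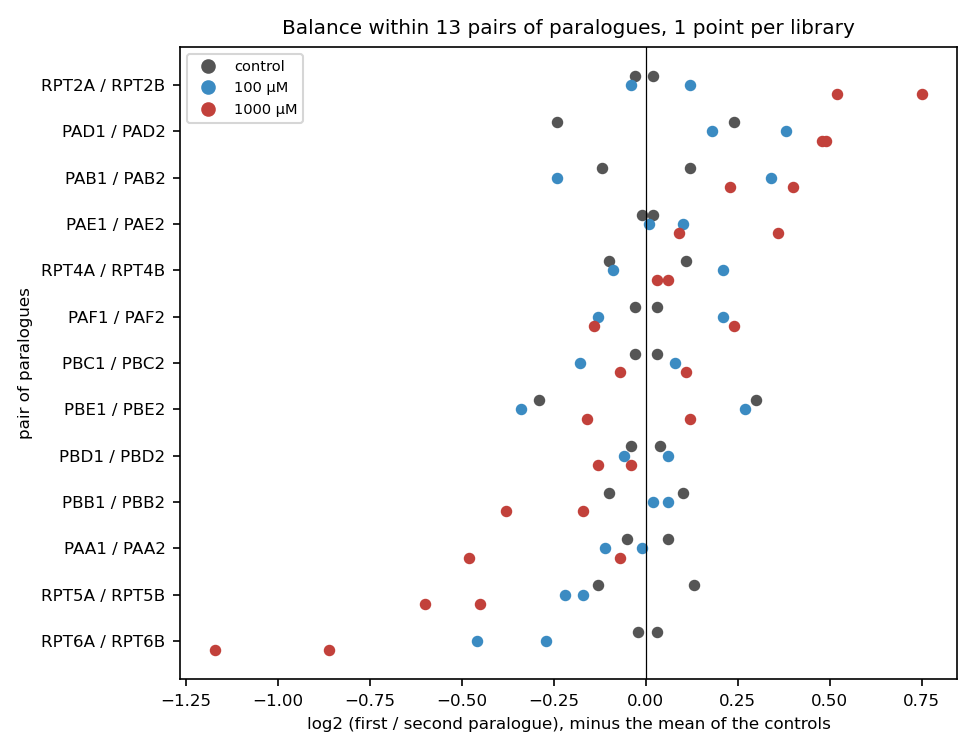
Log2 ratio of the first to the second gene of 13 pairs (vertical axis), minus its mean in the controls (horizontal axis), with 1 point per library, coloured by dose. The 1000 µM points of RPT6A and RPT6B lie furthest to the left and those of RPT2A and RPT2B furthest to the right. The ratios at 1000 µM and in the controls do not overlap in 8 of the 13 pairs. Of all 18380 tested genes, 5782 had both 1000 µM libraries above both controls and 6085 had both below. No such count was made for ratios of other gene pairs.

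NAC53 and NAC78 are known to bind promoters of proteasome genes through a motif with the core TGGGC, read on either strand (GCCCA on the other). In the 250 bases before the annotated start, taken from RefSeq's TAIR10.1 genome, this core was present in 22.7% of 27438 protein-coding genes and in 26.2% of the tested ones. It was present in 19 of the 43 subunit genes (44.2%). Of the 43, 14 (32.6%) had 2 or more matches, beside 15.9% of the tested protein-coding genes. By class, 5 of 12 alpha, 7 of 11 beta, 3 of 10 RPT and 4 of 10 RPN genes held it, and neither NAC gene did. The core was also frequent in most of the other lists described below. It was held by 8 of 13 further 26S genes, 6 of 11 assembly and accessory factors and 3 of 6 CDC48 genes. So did 9 of 20 autophagy genes, 5 of 12 ubiquitin and shuttle genes and 4 of 11 other membrane NAC genes. In the COP9 list, 2 of 10 genes held it. The differences between these lists were not tested. The promoters below are the 100 bases before the start, written 5′ to 3′ on the gene's strand with each match in capitals. RPT2A, RPT3 and PBB2 are shown because they had the largest log2 changes at 1000 µM of the subunit genes that hold the core, and RPN1A and RPN8A because they hold the most matches, 4 each.
RPT2A, chr4:14312183-14312282, plus strand: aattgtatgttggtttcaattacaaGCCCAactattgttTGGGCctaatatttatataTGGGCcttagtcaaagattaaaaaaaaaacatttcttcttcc
RPT3, chr5:23568952-23569051, plus strand: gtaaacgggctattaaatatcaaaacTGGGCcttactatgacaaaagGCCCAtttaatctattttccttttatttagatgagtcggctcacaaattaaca
PBB2, chr5:16250926-16251025, minus strand: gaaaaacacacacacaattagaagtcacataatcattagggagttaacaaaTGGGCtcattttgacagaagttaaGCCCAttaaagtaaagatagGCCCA
RPN1A, chr2:8858862-8858961, plus strand: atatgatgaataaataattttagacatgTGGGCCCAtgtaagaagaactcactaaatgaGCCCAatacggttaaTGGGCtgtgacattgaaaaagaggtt
RPN8A, chr5:1735625-1735724, plus strand: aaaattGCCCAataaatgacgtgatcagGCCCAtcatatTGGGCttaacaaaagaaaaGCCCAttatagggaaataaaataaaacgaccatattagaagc

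In RPN1A, the first run of capitals holds a match on each strand that overlap each other. The RPT6 pair is shown for contrast, since its genes differed most in their change and neither window holds the core.
RPT6A, chr5:6751698-6751797, plus strand: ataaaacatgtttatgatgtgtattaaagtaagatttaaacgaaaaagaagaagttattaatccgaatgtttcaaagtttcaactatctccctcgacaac
RPT6B, chr5:6756533-6756632, plus strand: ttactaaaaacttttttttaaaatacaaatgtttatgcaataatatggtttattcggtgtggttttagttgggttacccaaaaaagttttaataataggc

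Members with and without the core overlapped in their change. The 24 subunit genes without a match had a median log2 change at 1000 µM of 0.47 and a range from 0.16 to 1.27, the 19 with a match 0.52 and 0.28 to 0.82, and the 7 with 3 or more 0.57 and 0.45 to 0.82. The largest and the smallest change, in RPT6B and RPT2B, both belonged to genes without a match. A match of these letters is a description of the window and no evidence of binding.

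Genes that work with the proteasome were set beside its subunits, by lists of function. Each count below can be read against the 15.2% of all tested genes that rose and the 14.5% that fell at 1000 µM against the control. Of 13 further 26S genes, 11 passed the filter on low counts (PAC2 and RPN12B did not), and 7 rose and 0 fell at 1000 µM against the control (edgeR's quasi-likelihood test), with a median log2 change of 0.43. DSS1_V (AT5G45010), a gene of the small lid subunit DSS1, read 19.7 and 17.4 CPM in the controls, 22.7 and 23.2 CPM at 100 µM, and 30.2 and 27.2 CPM at 1000 µM, and rose with a log2 change of 0.63 ± 0.14, adjusted p = 0.00197. RPN8B (0.805, the largest of this list), RPN9B (0.59), DSS1_I (0.49), RPN2B (0.46), RPN9A (0.43) and RPN1B (0.325) also rose. The calls of RPN8B, RPN9A and RPN1B were not tried under the alternatives. The 4 tested genes that did not pass were RPN3B (0.30, adjusted p = 0.218), RPN13 (0.26, 0.12), RPT1B (0.08, 0.67) and RPN5B (0.04, 0.904). Among 10 assembly and accessory factors tested, 3 rose (against 15.2% of all tested genes) and 0 fell. These were UBP6, the ubiquitin protease bound to the cap, with a log2 change of 0.51 ± 0.10 and an adjusted p of 0.00115, the alternative cap PA200 (0.36, 0.00972) and the adaptor ECM29 (0.29, 0.0368). PTRE1, a regulator of proteasome activity, had a log2 change of 0.23 that did not pass, adjusted p = 0.142. ECM29 lost its call when any 1 library but 1000 µM replicate 2 was left out (0.0615 to 0.221) and with upper-quartile scaling, library totals, DESeq2 or the 2 groups fitted alone (0.0578 to 0.136), PA200 without either control (0.0693 to 0.103), and RPN2B (0.0525) and RPN9B (0.0631) without control replicate 1.

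The CDC48 segregase pulls ubiquitylated proteins out of membranes and complexes and hands them on. Of its 6 genes, 4 rose at 1000 µM and 0 fell, where 15.2% of all tested genes rose. CDC48B (AT3G53230) read 18.2 and 15.2 CPM in the controls, 22.4 and 21.3 CPM at 100 µM, and 48.6 and 42.0 CPM at 1000 µM. Its groups were fully separated, and its log2 change of 1.44 ± 0.14, adjusted p = 3.75e-07, was above that of any subunit gene. CDC48C (0.77), CDC48A (0.62) and the cofactor UFD1 (0.58) rose as well. Of 12 genes for ubiquitin and its shuttle proteins, 8 rose and 0 fell, among them UBQ10 (AT4G05320), a polyubiquitin gene, at 2319 and 2460 CPM in the controls, 2539 and 2592 CPM at 100 µM, and 4273 and 3308 CPM at 1000 µM. UBQ10's log2 change at 1000 µM was 0.67 ± 0.12, adjusted p = 0.000323, and the polyubiquitin genes UBQ11 (0.64) and UBQ3 (0.47) and the shuttle DSK2A (0.44) rose less. UBQ3 lost its call without control replicate 2 (0.0525) and DSK2A without control replicate 1 (0.0589).

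The COP9 signalosome is built of subunits akin to the lid of the cap but removes a ubiquitin-like tag from cullins. Of its 10 genes 1 rose and 0 fell at 1000 µM, against 15.2% of all tested genes that rose. CSN7 was that gene, with 27.4 and 23.0 CPM in the controls, 29.4 and 26.9 CPM at 100 µM, and 37.8 and 38.2 CPM at 1000 µM, and a log2 change of 0.60 ± 0.13, adjusted p = 0.00164. CSN6A (0.33, adjusted p = 0.0718), CSN4 (0.31, 0.1) and CSN8 (0.28, 0.143) did not pass. The median log2 change of the COP9 list was 0.21, below the 0.50 of the subunits; this difference was not tested. Autophagy is the other route by which plant cells remove proteins, proteasomes included, and 8 of its 20 listed genes rose and 1 fell, beside 15.2% and 14.5% of all tested genes. NBR1, a cargo receptor, read 317.5 and 327.3 CPM in the controls, 346.9 and 352.0 CPM at 100 µM, and 593.5 and 473.9 CPM at 1000 µM, with a log2 change of 0.73 ± 0.11, adjusted p = 4.64e-05. ATG18A (0.64) and ATG8B (0.60) rose too. The gene that fell was the protease ATG4A, with a log2 change of -0.62 ± 0.15, adjusted p = 0.00361, which was lost without control replicate 1 (0.0548).

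Other NAC factors held at membranes were the last list. Of 11, 8 could be tested, and 4 rose and 0 fell at 1000 µM, beside 15.2% and 14.5% of all tested genes. NAC013 (AT1G32870), which relays signals from mitochondria, read 7.71 and 6.42 CPM in the controls, 7.61 and 7.30 CPM at 100 µM, and 27.4 and 22.6 CPM at 1000 µM. Its controls and 100 µM libraries overlapped, as those of NAC53 did, and its log2 change of 1.82 ± 0.18, adjusted p = 6.41e-07, stood beside the 1.07 of NAC53. NAC062 (0.92 ± 0.11, adjusted p = 3.66e-06) lay between NAC53 and NAC78. NAC091 (0.49) and NAC017 (0.41), another factor of mitochondrial signalling, rose less, and NAC017 lost its call without control replicate 2 (0.142).

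**Figure D5:**
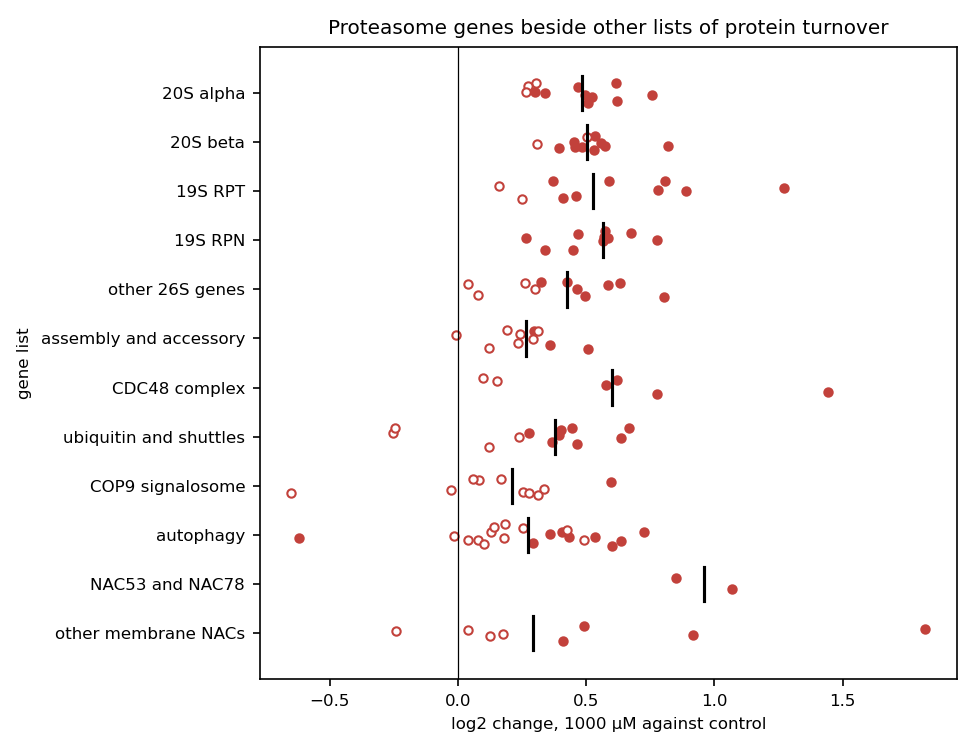
Log2 change at 1000 µM against the control (horizontal axis) of the tested genes of each list (vertical axis); each point is a gene, filled where the adjusted p was under 0.05, and the black bar is the list's median. The subunit classes lie wholly to the right of 0 with medians near 0.50, CDC48B and NAC013 are the points furthest to the right, and the COP9 signalosome has 1 filled point.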

How the data were processed

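RNA of WT leaves was sequenced in 3 groups of 2 libraries, grouped by the labels' titles. The authors deposited raw read counts per gene, whole numbers with a different total in each library. The tools named, per the submitters' processing notes, are HTSeq 0.6.1, DESeq 1.18.0, TopHat2 2.0.12 and Bowtie2 2.2.3, with the genome build TAIR10. What each did is not stated, and the strand setting is not given in the sources used here.

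The counts were tested with edgeR 4.0.16 (R 4.3.3): filterByExpr (18380 of 32678 genes kept), TMM scaling and the two-sided quasi-likelihood test on all 6 libraries, adjusted by Benjamini-Hochberg over all tested genes, with a threshold of 0.05. SE is the size of the log2 change over the root of its F statistic. The fit was tested on simulated data for 1000 µM against the control (18145 genes): 43.4% of 1.5-fold and 76% of 2-fold changes were recovered, and 7.75% of the calls were false, more than the threshold of 0.05 aims at. The simulation gave every group the same spread per gene and changed 100 genes at each fold. In the data, the 1000 µM libraries stood further apart than the others and 5442 genes were called, so these rates need not hold there. CPM used TMM; per kilobase refers to merged exon length. Gene names, lengths, overlaps and promoters came from RefSeq's TAIR10.1 (45 of 45 members found; for 7 the symbol there is the locus tag, and the usual subunit name was used). The members, lists and tests were chosen with earlier results of these data known. Named genes followed a rule: both regulators; per class the largest and smallest change at 1000 µM and the smallest p at 100 µM; the pairs differing most and least; up to 4 genes with the smallest p per other list. Further members were described after their values were seen. Alternatives were other scalings (RLE, upper quartile, totals), no filter, DESeq2 1.42.0, fits of 2 groups, a replicate block, and leaving out each library. Total counts limit precision, most for genes near 10 CPM, such as PBE2.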

Additional observations from a re-analysis of the deposited data

How the results depend on the processing

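At 1000 µM against the control, 25 to 37 of the 43 subunit genes rose under every alternative, and 0 fell: 36 with RLE scaling, 32 with upper-quartile scaling or library totals, 37 without a filter, 31 in DESeq2, and 25 to 36 when 1 library was left out. All 43 log2 changes stayed above 0, and 23 of the 36 calls held throughout. Over all genes, 5442 were called, 3328 in DESeq2 and 3318 to 6684 with 1 library left out. At 100 µM, 610 genes were called, 1091 without a filter, 335 in DESeq2, 1697 with 2 groups fitted and 101 to 1757 with 1 library left out; the subunits that rose were 0, then 1 without a filter, 7 with 2 groups fitted and 0 to 8 with 1 library left out. Between the doses, 2932 genes were called, 1625 in DESeq2 and 1158 to 4442 with 1 library left out; subunits that rose were 21, 10 in DESeq2 and 6 to 30 with 1 library left out. The cause of these shifts was not tested. Where leaving out a library left a group with 1, that library was assumed to vary like the others.

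Same-numbered libraries did not deviate together (r = 0.0277, -0.0311 and -0.0662 between the groups), so the numbers are not taken to pair them. With the replicate block, 446 genes were called at 100 µM, 4959 at 1000 µM and 2508 between the doses, and 0, 34 and 16 subunit genes rose. At 1000 µM against the control the block ended the calls of PAG1 (adjusted p = 0.075), PBD2 (0.0685) and RPN2A (0.0624), and PBE2 passed (0.0321).

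No called value changed its sign. At 100 µM, leaving out 1 library turned the sign of these uncalled log2 changes, given as ranges: PAB1 -0.04 to 0.31, PAB2 -0.03 to 0.20, PAD2 -0.04 to 0.22, PAF2 -0.06 to 0.28, PBE2 -0.04 to 0.49, PBF1 -0.01 to 0.12, RPT6A -0.01 to 0.03, RPN8A -0.03 to 0.20, RPN2B -0.06 to 0.10, CDC48C -0.20 to 0.22, UFD1 -0.08 to 0.07, CSN8 -0.15 to 0.03, ATG18A 0.00 to 0.19, NAC013 -0.05 to 0.21, NAC062 -0.01 to 0.12 and NAC091 -0.03 to 0.17. UFD1 was 0.00 with RLE, upper-quartile scaling and DESeq2. Between the doses, RPT2B ran from -0.12 to 0.05.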
